A study of Mus musculus with 4 samples.

Results

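The IL-10 and IL-6 cytokine axis was examined in RNA sequencing of libraries that the paper describes as tumor-associated macrophages (TAMs) from NB9464 tumors. It was taken as 10 named genes, found by their Ensembl mouse gene identifiers among the 54532 genes counted. These were the ligand genes *Il10*, *Il6*, *Osm* and *Lif*, the receptor genes *Il10ra*, *Il10rb*, *Il6ra* and *Il6st*, the transcription factor gene *Stat3* and its feedback inhibitor gene *Socs3*. All 10 passed the filter on low counts. NB9464 is a murine neuroblastoma line with amplified MYCN, and its cells were implanted under the skin of mice on the C57BL/6 background that were 4 to 6 weeks old. Tumors grew for 40 days without treatment, and per the paper's methods TAMs were taken with magnetic beads against CD11b and F4/80. A line of the labels also names BMDMs (bone marrow derived macrophages), and the series title an adoptive transfer, so the source is given as described. In SykMC-KO mice, floxed *Syk* is combined with Cre recombinase under the lysozyme M gene, so deletion is directed to the whole myeloid lineage and not to macrophages alone. SykMC-WT mice are the wild type controls, and whether they carry a floxed or Cre allele is not given in the sources used here. Each genotype had 2 libraries, M7 and M8 for SykMC-WT and M9 and M10 for SykMC-KO. The labels do not say whether each came from a separate mouse. The p-values therefore set differences against the spread between these libraries and may not extend to other mice.

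IL-10 binds a receptor made of IL-10Ra and IL-10Rb, and IL-6, OSM and LIF all signal through a shared chain, gp130, encoded by *Il6st*. Each receptor activates JAK kinases that phosphorylate STAT3, and STAT3 induces *Socs3*, whose product blocks gp130 signaling while sparing the IL-10 receptor. In macrophages IL-10 restrains inflammatory gene expression, whereas IL-6 promotes inflammation and, in tumors, suppressive myeloid cells. Fibroblasts and endothelial cells are also well known sources and targets of IL-6 family cytokines.

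Total counts ran from 20755886 to 23518045 per library. Mitochondrial genes took 2.20% and 2.34% of the counts in M7 and M8 and 6.00% and 15.9% in M9 and M10. *Syk*, the targeted gene, had a level in CPM (counts scaled to a common library total after TMM normalization) of 27.9 and 23.2 in the libraries labelled SykMC-WT and of 196 and 160 in those labelled SykMC-KO, the reverse of its labels, so every direction below is for the libraries as labelled. In the libraries labelled SykMC-KO the 10 macrophage markers were all higher (summed level 669 to 942 CPM against 4597 to 7793 CPM, none at 0), as were all 6 pan-leukocyte genes (259 to 349 against 3025 to 4221 CPM). Neutrophil markers were higher for 5 of 5 tested (24.6 to 39.3 against 201 to 407 CPM), T cell markers for 5 of 6 (4.19 to 8.90 against 31.2 to 54.5 CPM, mostly *Cd4*, and 1 of 6 higher without M7 or without M8) and B cell markers for 1 of 4 (1.59 to 1.82 against 9.08 to 9.59 CPM, with 2 higher without M9). Fibroblast markers were lower for 5 of 8 (12549 to 14444 against 4060 to 4959 CPM) and endothelial markers for 2 of 6 (164 to 169 against 116 to 129 CPM, with 1 lower without M7 or M8, 4 without M9 and 3 without M10). Of 6 tumor cell markers, *Th* and *Dbh* were among those at 0 counts in every library. Neither of the pair that could be tested, *Hand2* and *Chga*, passed the threshold (log2 fold changes -0.28 and 2.80). The summed level of all 6 (262 to 302 against 181 to 287 CPM) was almost all *Hand2*. That gene was at 262, 301, 178 and 286 CPM in M7 to M10. The summed fibroblast level was above the summed macrophage level in M7, M8 and M10 (4959 against 4597 CPM in M10). In M9 it was below (4060 against 7793 CPM). Most of the fibroblast sum came from *Col1a1* and *Col3a1* (2476 and 2121 CPM in M10). The other fibroblast markers were each at 248 CPM or less in every library, so the comparison of sums rests mainly on these collagen genes. The libraries are thus called TAMs by their description and not by these markers. The part of these markers in the results below was not tested, and in bulk samples fewer cells of a type and less RNA per cell cannot be told apart.

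Of the 10 axis genes, 7 were higher in the libraries labelled SykMC-KO with an adjusted p under 0.05 (quasi-likelihood test of edgeR, Benjamini-Hochberg over 16451 genes). These were all 4 ligands and the receptor genes *Il10ra*, *Il10rb* and *Il6ra*. The shared chain *Il6st*, *Stat3* and *Socs3* did not pass the threshold. None was lower by this test, 1 had a negative fold change at an unadjusted p under 0.05, and 2 were lower by DESeq2's Wald test. Over all genes tested, 22.7% were called higher and 16.7% lower. The median log2 fold change of the 10 genes was 1.97, against 0.02 over all genes tested. With 2 libraries a side, permuting labels exactly for 1 gene (two-sided) gives a p of 0.333 at best, and the adjusted p-values therefore depend on the spread that edgeR estimated over all genes.

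**Figure D1:**
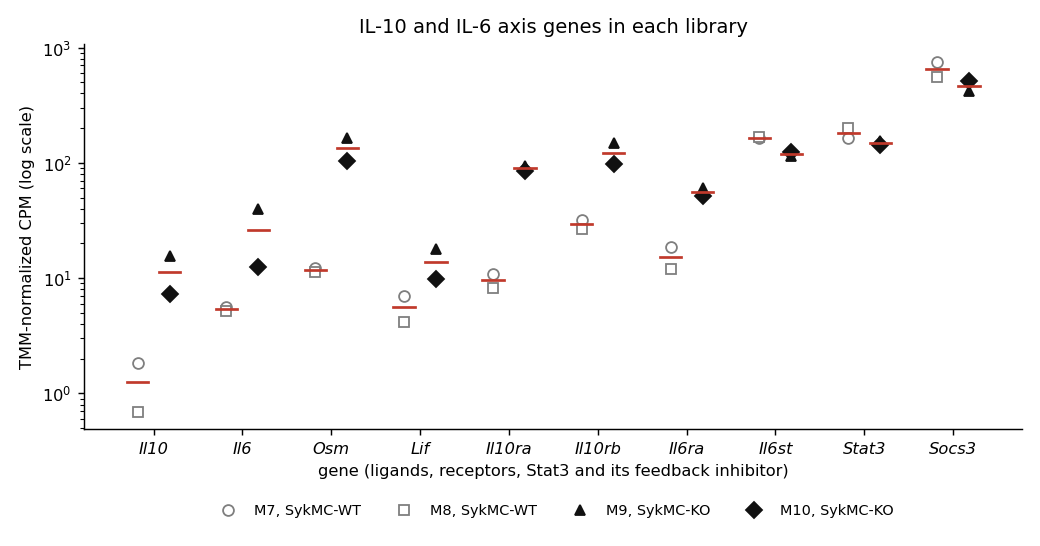
TMM-normalized CPM (log scale) of the 10 axis genes, 1 point per library, with open grey points for M7 and M8 (SykMC-WT), black points for M9 and M10 (SykMC-KO) and a red bar at the mean of each genotype. The 4 ligands, *Il10ra*, *Il10rb* and *Il6ra* sit higher in M9 and M10, while *Il6st*, *Stat3* and *Socs3* sit slightly lower, with adjusted p between 0.0513 and 0.211.

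*Il10* (ENSMUSG00000016529, chromosome 1, 131019845 to 131024974 of GRCm38), which encodes the anti-inflammatory cytokine of the axis, had the lowest counts of the 10 genes in both libraries labelled SykMC-WT. In M7 to M10 it had 50, 17, 318 and 134 counts, or 1.82, 0.692, 15.4 and 7.30 CPM. The means were 1.26 ± 0.7998 CPM (SD, n = 2) and 11.4 ± 5.75 CPM (SD, n = 2). Both libraries labelled SykMC-KO lay above both labelled SykMC-WT, although the libraries of one genotype differed by 2.64-fold (M7 over M8) and 2.11-fold (M9 over M10). This gave a log2 fold change of 3.16 (standard error, SE, 0.599, adjusted p = 0.00915), and it ran from 2.44 without M9 to 4.03 without M7.

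*Il6* (ENSMUSG00000025746, chromosome 5, 30013114 to 30019981), the cytokine that signals through IL-6Ra and gp130, was measured at 5.58, 5.17, 39.9 and 12.4 CPM in M7 to M10. The libraries labelled SykMC-WT were close to each other (5.37 ± 0.290 CPM, SD, n = 2), whereas M9 was 3.21-fold above M10 (26.2 ± 19.4 CPM, SD, n = 2). The log2 fold change was 2.28 (SE 0.529, adjusted p = 0.0175). Without M9 it was 1.12 (adjusted p = 0.00294), with M10 then standing alone for its genotype and its spread assumed equal to that of the other group, so M9 carried much of the size of the difference. The proximal promoter of *Il6* is shown because it is the textbook example of an inducible cytokine promoter. It is given for chr5:30012954-30013093 (GRCm38.p6, plus strand, from RefSeq), from 160 to 21 bases before the start of the gene, and capitals mark matches to TTNNGCAA (C/EBP type) and to GGGNN followed by TTTCC (NF-kappaB type).
Il6: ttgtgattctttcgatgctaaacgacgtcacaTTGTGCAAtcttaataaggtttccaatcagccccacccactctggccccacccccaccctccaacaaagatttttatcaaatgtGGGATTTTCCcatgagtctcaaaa
Searched on both strands of the windows from 250 bases before to 50 bases after each start, these motifs were found in 10.8% and 1.63% of 32851 promoters. Among the 6 axis genes with a promoter in that table (*Il6*, *Lif*, *Il6ra*, *Il6st*, *Stat3* and *Socs3*), *Il6* was the only one with either match. A match is a description of the letters and not evidence of binding.

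*Osm* and *Lif* encode the remaining ligands of gp130, oncostatin M and leukemia inhibitory factor, and the genes lie close together on chromosome 11 (*Osm*, ENSMUSG00000058755, 4236420 to 4241026, and *Lif*, ENSMUSG00000034394, 4257557 to 4272514). *Osm* was 12.1 and 11.4 CPM in M7 and M8 and 166 and 103 CPM in M9 and M10. Its log2 fold change, 3.51, was the largest among the 10 genes (SE 0.268, adjusted p = 0.000750), with means of 11.8 ± 0.528 CPM (SD, n = 2) and 134 ± 44.3 CPM (SD, n = 2). The level was thus 11.4-fold higher in the libraries labelled SykMC-KO. *Lif* was 6.9995, 4.15, 17.8 and 9.92 CPM in M7, M8, M9 and M10. Its genotypes did not overlap, but M7 and M10 lay close to each other, and the log2 fold change of 1.31 (SE 0.402) passed the threshold narrowly (adjusted p = 0.0421). The call for *Lif* was lost without M8 (log2 fold change 0.98, adjusted p = 0.225) and without M9 (0.74, adjusted p = 0.0642).

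The receptor genes of IL-10 both rose. *Il10ra* (ENSMUSG00000032089, chromosome 9, 45253837 to 45269149), the ligand-binding chain that is largely restricted to hematopoietic cells, was 10.9 and 8.18 CPM in M7 and M8 and 94.8 and 84.6 CPM in M9 and M10. The means were 9.56 ± 1.95 CPM (SD, n = 2) and 89.7 ± 7.21 CPM (SD, n = 2), and the log2 fold change of 3.23 had the smallest adjusted p of the axis (SE 0.208, adjusted p = 0.000626). *Il10rb* (ENSMUSG00000022969, chromosome 16, 91406164 to 91425834), the accessory chain that other receptors of the IL-10 family share, was 32.1 and 26.7 CPM against 148 and 97.9 CPM. Its log2 fold change was 2.06 (SE 0.241, adjusted p = 0.00204). In each gene the libraries labelled SykMC-KO lay well above those labelled SykMC-WT, and leaving out any library kept the log2 fold change between 3.03 and 3.45 for *Il10ra* and between 1.65 and 2.34 for *Il10rb*.

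The receptor genes of IL-6 did not move together. *Il6ra* (ENSMUSG00000027947, chromosome 3, 89864059 to 89913196), the chain specific to IL-6, was 18.4 and 12.0 CPM in M7 and M8 and 59.96 and 51.6 CPM in M9 and M10, and its log2 fold change was 1.87 (SE 0.245, adjusted p = 0.00280). *Il6st* (ENSMUSG00000021756, chromosome 13, 112464070 to 112510086), the gp130 chain that nearly all cell types express, was 165 and 166 CPM against 114 and 125 CPM. Here the libraries labelled SykMC-KO were the lower ones and did not overlap the others, with means of 166 ± 0.897 CPM (SD, n = 2) and 120 ± 7.93 CPM (SD, n = 2). The log2 fold change of -0.47 just missed the threshold (SE 0.154, adjusted p = 0.0513). *Il6st* was called lower with DESeq2's Wald test (-0.52, adjusted p = 0.0271). It was also called without M9 (-0.49) and without M10 (-0.53), but not without M7 (-0.48) or without M8 (-0.48). Without M9 or M10 the spread came from the libraries labelled SykMC-WT alone, which lay close together for this gene.

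*Stat3* (ENSMUSG00000004040, chromosome 11, 100885098 to 100939540), the transcription factor on which these receptors converge, was 164, 201, 153 and 142 CPM in M7 to M10. Its log2 fold change was -0.30 (SE 0.174, adjusted p = 0.211). The annotated span of *Stat3* meets that of *Stat5a* on the opposite strand, which had 132 to 348 counts per library, and whether counting used strand is not given in the sources used here. *Socs3* (ENSMUSG00000053113, chromosome 11, 117966079 to 117970047), the STAT3-induced feedback inhibitor of gp130, was 757 and 557 CPM in M7 and M8 and 418 and 513 CPM in M9 and M10. The genotypes did not overlap, but the gap between M8 and M10 was smaller than that between the libraries of either genotype, and the log2 fold change of -0.50 did not pass the threshold (SE 0.232, adjusted p = 0.132). *Socs3* was called lower with DESeq2's Wald test (-0.55, adjusted p = 0.0432) and without M10 (-0.64). It was not called without M7 (-0.26), without M8 (-0.71) or without M9 (-0.44).

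The region upstream of the RefSeq start of *Socs3* is shown because STAT3 induces this gene and a STAT type motif matches within it. It is given for chr11:117969417-117969556 (GRCm38.p6, minus strand, from RefSeq), from 190 to 51 bases before the RefSeq start. On this strand the GENCODE span of *Socs3* begins further upstream, at 117970047, so the printed stretch lies inside that span. Capitals mark the match to TTCNNNGAA (STAT type).
Socs3: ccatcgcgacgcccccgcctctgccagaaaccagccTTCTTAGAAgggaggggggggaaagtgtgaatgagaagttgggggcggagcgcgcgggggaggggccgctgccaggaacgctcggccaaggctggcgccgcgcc
The match begins 154 bases before the RefSeq start and, as for *Il6*, is not evidence of binding. This motif, which reads the same on both strands in its fixed letters, was found in 8.30% of the promoters, and *Socs3* was the only one of the 6 axis genes in the table with a match in its window.

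The genes were also compared per length of their exons, the scale on which levels of different genes can be set side by side (CPM per kilobase). *Socs3* had the highest level in each genotype, 227 ± 48.9 (SD, n = 2) in the libraries labelled SykMC-WT and 161 ± 23.2 (SD, n = 2) in those labelled SykMC-KO, above 99.1% and 97.9% of the genes tested. In the libraries labelled SykMC-WT it was followed by *Stat3* (19.1), *Il6st* (14.9), *Il10rb* (7.72), *Osm* (5.18), *Il10ra* (2.73), *Il6* (2.21), *Il6ra* (1.76), *Lif* (1.28) and *Il10* (0.960). Each neighbouring pair from *Il6* down overlapped between libraries, so these neighbours did not differ beyond their spread, although both libraries gave the same order and *Il6* lay above *Lif* and *Il10* in each. In the libraries labelled SykMC-KO, *Osm* was next (59.1), followed by *Il10rb* (32.3), *Il10ra* (25.6), *Stat3* (15.5), *Il6* (10.8), *Il6st* (10.8), *Il10* (8.68), *Il6ra* (6.45) and *Lif* (3.19). Of those neighbours, *Il10rb* and *Il10ra* overlapped, as did each pair from *Stat3* down to *Il6ra*. *Osm* thus moved from rank 5 among the axis genes in the libraries labelled SykMC-WT to rank 2 in those labelled SykMC-KO, and *Il10ra* moved from above 43.0% to above 87.7% of the genes tested.

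Because the marker genes of leukocytes were also higher in the libraries labelled SykMC-KO, the libraries were scaled to 10 macrophage markers and to 6 pan-leukocyte genes. Relative to the macrophage markers, *Il10*, *Il10ra* and *Osm* were at 0.30, 0.38 and 0.57 on the log2 scale (adjusted p = 0.730, 0.514 and 0.317). On this scale *Il6*, *Il10rb* and *Il6ra* were at -0.76, -0.85 and -0.96 (adjusted p = 0.245, 0.129 and 0.0926). *Lif* was lower by -1.58 (adjusted p = 0.0208), and *Il6st*, *Stat3* and *Socs3* were lower by -3.33, -3.22 and -3.30 (adjusted p = 3.63e-07, 7.90e-07 and 8.05e-07). Thus 4 axis genes were lower relative to the macrophage markers and none was higher by edgeR's test, also at an unadjusted p under 0.05. This scaling moved the median log2 fold change of all genes tested to -2.85, with 87.3% of them called lower and 0.626% higher. The values of *Il6st*, *Stat3* and *Socs3* lay below that median and those of the other 7 axis genes above it.

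Relative to the pan-leukocyte genes, the log2 fold changes of *Osm*, *Il10ra* and *Il10* were -0.16, -0.38 and -0.46, none past the threshold (adjusted p = 0.679, 0.358 and 0.524). The remaining 7 genes were called lower, from -1.46 for *Il6* to -4.08 for *Il6st*, and none was higher by edgeR's test, also at an unadjusted p under 0.05. Here the median of all genes tested was -3.60, with 92.8% called lower and 0.334% higher. *Syk* itself had a log2 fold change of 2.80 with TMM normalization (adjusted p = 0.000674), -0.08 on the macrophage marker scale (adjusted p = 0.894) and -0.83 on the pan-leukocyte scale (adjusted p = 0.0303).

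**Figure D2:**
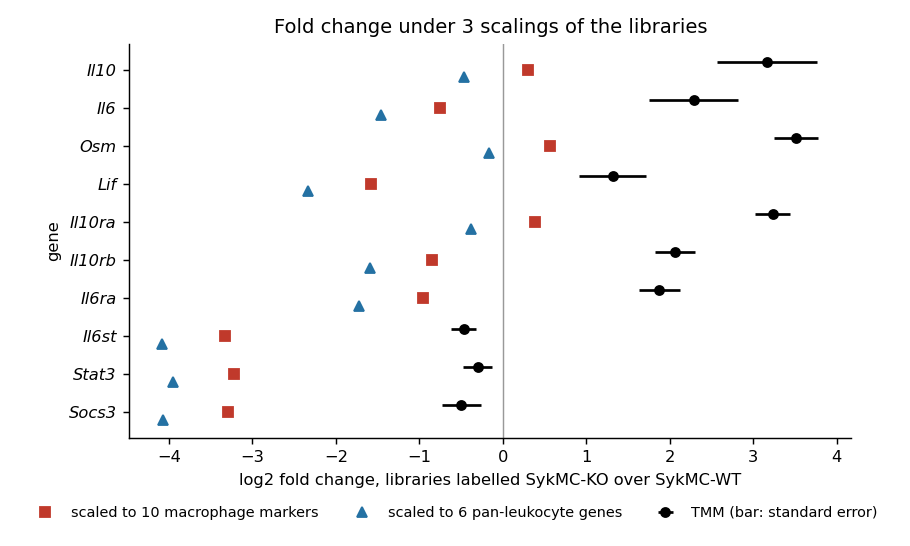
Log2 fold change of each axis gene (libraries labelled SykMC-KO over SykMC-WT) with TMM normalization (black, bars are the standard error) and with the libraries scaled to macrophage markers (red) or pan-leukocyte genes (blue). *Il10*, *Il10ra* and *Osm* lie between -0.46 and 0.57 under the marker scalings, whereas *Il6st*, *Stat3* and *Socs3* lie near 0 with TMM and at -3.22 or below under the marker scalings.

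Ratios of axis genes within a library do not depend on how libraries are scaled. They can still change with the mix of cells. Leukocyte markers were higher and fibroblast markers lower in the libraries labelled SykMC-KO, and their part in these ratios was not tested. The ratio of *Il6ra* to *Il6st*, in counts per kilobase, was 0.144 in M7 and 0.0924 in M8 against 0.676 in M9 and 0.529 in M10, a 5.19-fold higher geometric mean in the libraries labelled SykMC-KO. The ratio of *Il10ra* to *Il10rb* was 0.371 and 0.334 against 0.698 and 0.941, a 2.30-fold difference, so that their bulk transcript levels came closer to equal. For both ratios the genotypes were apart by more than the spread between libraries.

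Among the ligands, *Osm* exceeded *Lif* by 3.32-fold and 5.26-fold in M7 and M8 and by 17.8-fold and 19.9-fold in M9 and M10, a 4.50-fold difference. The ratio of *Il10* to *Il6* was 0.606 and 0.248 in M7 and M8 and 0.717 and 1.09 in M9 and M10. Its genotypes did not overlap, but M7 lay close to M9, and the log2 difference of 1.19 was 0.55 without M8 and 1.83 without M7. The ratio of *Socs3* to *Stat3* was 15.2, 9.16, 8.98 and 11.9 in M7 to M10 and overlapped between the genotypes. With 2 libraries per genotype these ratios are given without a test.

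**Figure D3:**
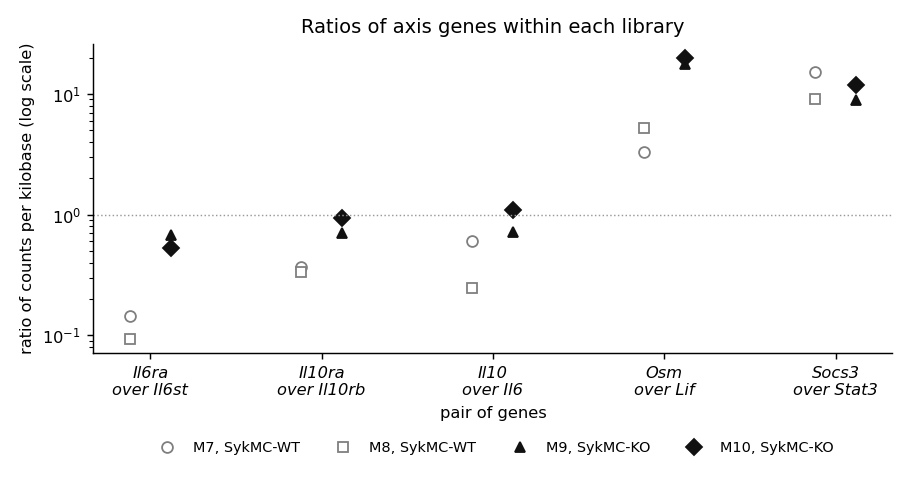
Ratio of counts per kilobase of each pair of axis genes (log scale), 1 point per library, with open grey points for M7 and M8 (SykMC-WT), black points for M9 and M10 (SykMC-KO) and a dotted line at equal levels. The ratios of *Il6ra* to *Il6st*, *Il10ra* to *Il10rb* and *Osm* to *Lif* are higher in M9 and M10, and that of *Socs3* to *Stat3* overlaps.

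The other genes of the pathway were read from 7 lists of 54 genes, of which 47 passed the filter, 21 were higher and 5 lower. Beside the counts of these lists stand the shares over all genes tested, 22.7% higher and 16.7% lower. No set test was run, so the counts only describe each list. Among the remaining IL-6 family ligands, 1 of 6 tested was higher and 2 were lower. *Ebi3*, a subunit of IL-27 and IL-35, was 1.24 and 0.407 CPM in M7 and M8 and 19.5 and 15.9 CPM in M9 and M10 (log2 fold change 4.40, SE 0.513, adjusted p = 0.00204). *Il27*, which encodes the other subunit of IL-27, was below the filter, with 0, 3, 22 and 9 counts in M7 to M10. *Il11*, a gp130 ligand often made by stromal cells, was 2.81 and 3.46 CPM against 0.874 and 1.09 CPM (log2 fold change -1.67, adjusted p = 0.0373), a call lost without M7 (adjusted p = 0.233) and without M8 (adjusted p = 0.377). The list had 0 genes lower without M8, 2 without M7 and 3 without M9 or M10.

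Of the 6 IL-6 family receptors, 2 were higher and 1 lower. *Osmr*, a receptor chain for OSM, was 45.9 and 69.3 CPM in M7 and M8 and 10.3 and 14.8 CPM in M9 and M10, 4.58-fold lower in the libraries labelled SykMC-KO (log2 fold change -2.20, SE 0.2802, adjusted p = 0.00260). *Osm* and *Osmr*, a ligand and a chain of its receptor, therefore differed between genotypes in opposite directions with TMM normalization. *Osmr* was also lower on the macrophage marker scale (-5.07), where *Osm* was at 0.57. *Il27ra*, the receptor of IL-27, rose by 2.259 on the log2 scale (adjusted p = 0.0243), a call that was lost without M7 (adjusted p = 0.204), without M8 (adjusted p = 0.191) and with library size only (1.75, adjusted p = 0.0548). *Il31ra*, named after its values were seen, passed the test on 0, 1, 14 and 13 counts in M7 to M10 and lost its call without M7 (adjusted p = 0.310) and without M8 (adjusted p = 0.184). The list had 0 genes higher without M7 or M8, 1 without M9 and 2 without M10, and 3 were lower without M10. The other receptor chain of LIF, *Lifr*, had a log2 fold change of 0.39 (adjusted p = 0.231).

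The rest of the IL-10 family was at low levels or undetected. *Il20* and *Il22* had 0 counts in every library and *Il24* had 1 count in M7 only, where 3 counts, taken as the smallest detectable signal, correspond to 0.109 to 0.163 CPM. *Il19* (0.763 to 1.51 CPM) and the receptor genes *Il20rb* (1.60 to 3.54 CPM) and *Il22ra1* (0.0971 to 0.510 CPM) were tested, with adjusted p of 0.541, 0.244 and 0.167. The receptor genes *Il20ra*, *Il22ra2* and *Ifnlr1* were below the filter, with 15 counts or fewer in each library.

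Of the 6 JAK kinase and shedding protease genes, *Adam17* alone passed the threshold. Its product cleaves IL-6Ra and so makes the soluble receptor. It was 40.2 and 42.5 CPM against 139 and 94.4 CPM (log2 fold change 1.495, SE 0.216, adjusted p = 0.00388). *Jak1*, *Jak2* and *Tyk2*, which couple these receptors to STAT3, were at 0.20, -0.28 and 0.08 on the log2 scale (adjusted p = 0.386, 0.295 and 0.714). Of 6 feedback inhibitors and phosphatases, 3 were higher, namely *Cish* (log2 fold change 1.72, adjusted p = 0.00476), *Socs2* (1.24, adjusted p = 0.0189) and *Ptpn2* (0.86, adjusted p = 0.0131). The call for *Socs2* was lost without M7 (0.91, adjusted p = 0.116) and with library size only (0.71, adjusted p = 0.0960), and that for *Ptpn2* without M8 (0.70, adjusted p = 0.163) and with library size only (0.33, adjusted p = 0.259), where 1 gene of the list was higher and 3 lower. *Cish* and *Socs2* are best known as targets and inhibitors of STAT5 signaling. *Pias3*, which encodes an inhibitor of STAT3, was lower (-1.15, adjusted p = 0.0115). *Socs1*, a relative of *Socs3*, had a log2 fold change of -0.29 (adjusted p = 0.269). On the macrophage marker scale all 12 genes of these 2 lists were lower, *Adam17* included (-1.45, adjusted p = 0.0109), where 87.3% of all genes tested were lower and their median was -2.85.

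Of 20 genes known to respond to IL-10 or STAT3, 14 were higher and 1 lower, beside 22.7% and 16.7% of all genes tested. The median of the list was 1.57 on the log2 scale, against 0.02 for all genes tested. *Il1rn*, the IL-1 receptor antagonist, was 28.8 and 20.8 CPM in M7 and M8 and 423 and 193 CPM in M9 and M10 (log2 fold change 3.64, SE 0.413, adjusted p = 0.00189). *Saa3*, an acute phase gene, was 17.2 and 10.7 CPM against 93.4 and 187 CPM (3.33, adjusted p = 0.00215). *Zfp36*, whose product destabilizes cytokine mRNAs, was 96.9 and 68.2 CPM against 887 and 705 CPM (3.27, adjusted p = 0.000834). *Fgl2* was 28.0 and 23.2 CPM against 193 and 119 CPM (2.61, adjusted p = 0.00149). *Ddit4*, named after its values were seen, was the lower gene (-0.73, adjusted p = 0.0164), a call lost without M7 (adjusted p = 0.0895) and without M8 (adjusted p = 0.170). The genes *Etv3*, *Sbno2*, *Bcl6*, *Timp1* and *Hif1a* did not pass the threshold, with log2 fold changes from -0.27 to 0.35. The genes of this list respond to other signals as well. With each library left out in turn, 11 to 15 of the 20 were higher. On the macrophage marker scale 11 of the 20 were lower and the median was -1.33, against 87.3% lower and a median of -2.85 over all genes tested. There *Il1rn*, *Saa3*, *Zfp36* and *Fgl2* were at 0.68, 0.63, 0.41 and -0.32 (adjusted p = 0.233, 0.267, 0.493 and 0.575). On the pan-leukocyte scale 17 of the 20 were lower, against 92.8% of all genes tested. The same named genes were there at -0.05, -0.17, -0.35 and -1.06.

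**Figure D4:**
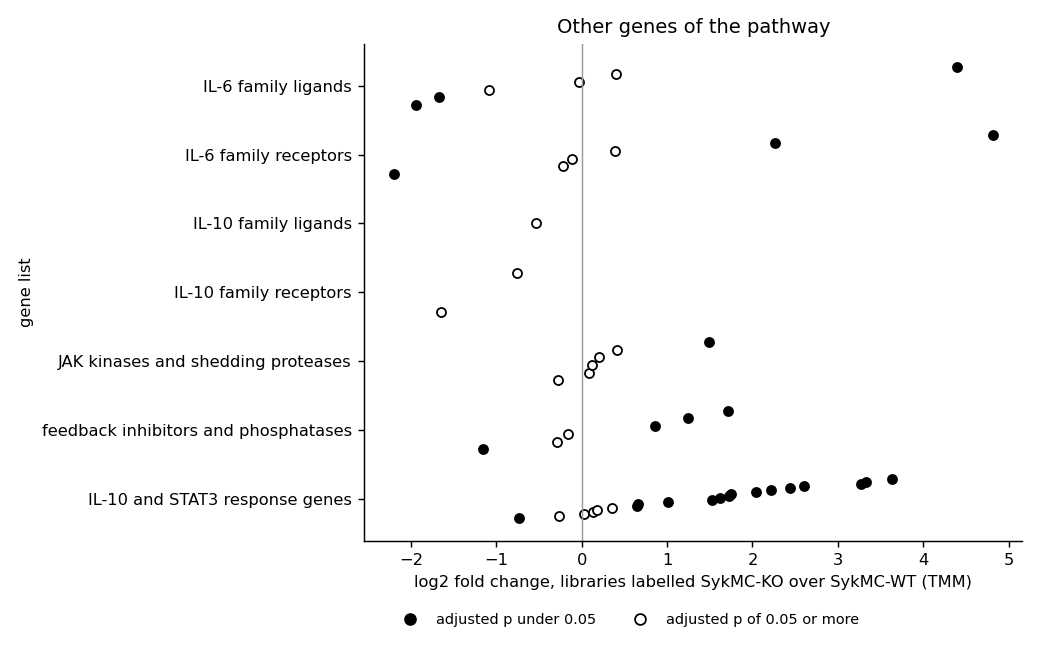
Log2 fold change (libraries labelled SykMC-KO over SykMC-WT, TMM) of the 47 tested genes of 7 pathway lists, 1 point per gene, filled where the adjusted p was under 0.05. Most of the 20 IL-10 and STAT3 response genes lie to the right (14 higher), while most JAK kinase and shedding protease genes lie near 0, and the rightmost receptor point, *Il31ra*, rests on 0 and 1 counts in M7 and M8, so its fitted value is no measure of size.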

How the data were processed

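RNA was sequenced from 4 libraries, 2 per genotype. Per the paper's methods, alignment was to mm10 by STAR and quantification by Salmon, run within bcbio, and the submitters' processing notes name STAR 2.6.1d and Salmon 1.4.0. The values the authors deposited are whole-number counts per Ensembl gene, not normalized. How Salmon's estimates became whole numbers is not given in the sources used here. The labels describe paired reads on a NovaSeq instrument, the methods single reads in triplicate on a HiSeq. The labels also name BMDMs in 1 line, and the series title an adoptive transfer.

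Symbols, positions and exon lengths came from GENCODE M21 on GRCm38 (54495 genes matched), and promoters from RefSeq (GRCm38.p6, 6 of the 10 genes). Counts were filtered with filterByExpr, normalized with TMM (factors 1.22, 1.19, 0.876 and 0.787 for M7 to M10) and compared with edgeR 4.0.16 in R 4.3.3 (glmQLFit, glmQLFTest, Benjamini-Hochberg over 16451 genes, threshold 0.05). CPM are relative to TMM-normalized library totals. Libraries of one genotype differed beyond sampling noise (chi-square per degree of freedom 50.6 and 168). The fit was tested on simulated data before use, where it called 27 of 100 genes changed 2-fold and 71 of 100 changed 4-fold. A gene that did not pass the threshold is therefore not shown to be unchanged. The simulation changed a much smaller share of genes than was called here (22.7% higher and 16.7% lower). Its rates may therefore differ from those of this comparison. A floor of 3 counts was used for detection and covers counting error only. Where a library was left out, the lone library of its genotype was assumed to vary like the other group.

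Alternatives were DESeq2 size factors, library size only, scaling to 10 macrophage markers or 6 pan-leukocyte genes, 2 other filters, DESeq2 1.42.0, leaving out mitochondrial and 4 rRNA-like genes, and leaving out each library. Besides the 10 genes, those of the pathway lists with an adjusted p under 0.05 and an average of at least 1 CPM were named, up to 4 per list by size of change. The members and lists were chosen with earlier results of these data known. Results for some genes of these lists are not reported here.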

Additional observations from a re-analysis of the deposited data

How the results depend on the processing

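The number of axis genes higher in the libraries labelled SykMC-KO was 7. It was 6 or 7 when any library was left out and under the other filters, DESeq2 and library size, and 0 under either marker scaling. The number lower was 0. It was 1 with DESeq2 size factors, with at least 10 counts in every library and without mitochondrial and rRNA-like genes (*Il6st* each time), 2 with DESeq2's Wald test, 3 with library size only, 4 with the macrophage marker scaling, 7 with the pan-leukocyte scaling, and 0 to 2 with each library left out. Signs turned only under the marker scalings. Under the macrophage marker scaling the log2 fold changes were -0.76 (*Il6*), -0.85 (*Il10rb*), -0.96 (*Il6ra*) and -1.58 (*Lif*). Under the pan-leukocyte scaling they were -0.16 (*Osm*), -0.38 (*Il10ra*), -0.46 (*Il10*), -1.46 (*Il6*), -1.59 (*Il10rb*), -1.73 (*Il6ra*) and -2.33 (*Lif*). Each scaling moves every gene of a library together, by an amount set by the levels of its marker genes in that library. The call for *Lif* was also lost with DESeq2 size factors (adjusted p = 0.0517), with library size only (0.185) and without mitochondrial and rRNA-like genes (0.0516), and the cause was not tested. With library size only, *Stat3* and *Socs3* were lower as well (-0.83 and -1.04), and 23.7% of all calls were higher, against 57.6% with TMM. Over all genes, those called higher ranged from 1478 to 5010 with each library left out. Differences in the genes under 3 counts were not detectable at this depth.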
